A study of Mus musculus with 18 samples.

Results

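The infarct core of Trem2 knockout mice was compared with the infarct core of wild-type mice in 6 RNA-seq libraries, 3 per genotype, chosen by their labels from the 18 libraries of the study. The other 12 libraries came from the peri-infarct zone and the contralateral site of both genotypes, 3 per group. All mice were male, 8 to 10 weeks old and on a C57Bl6 background. Every animal had a photothrombotic stroke: after 50 mg/kg Rose Bengal, a dye that clots vessels when lit, a 125 mW laser at 525 nm was shone on a cortical area, giving a lesion held to a circle of 3 mm across. Brains were taken 7 days later and stained with TTC, which leaves dead tissue pale, so that core, border and opposite side could be cut apart. The groups used here were therefore Trem2 knockout core and Trem2 wild-type core, both stroked, and no unstroked animal entered. The labels do not say how the knockout allele was made, whether wild types were littermates, or whether each library was a separate animal, so the p-values measure the spread between these libraries, which may be technical.

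Trem2 is a lipid-sensing receptor on the surface of microglia and some macrophages, and it signals through the adaptor Tyrobp. In injured or amyloid-laden brain it is known for letting microglia take up lipid debris and switch on the disease-associated programme, a gene set for lipid handling, lysosomes and phagocytosis. Type I interferon acts through a complex with Stat2 and Irf9, which binds a short DNA element in front of interferon-stimulated genes.

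Wild-type core library 3 stood apart from the other 5 core libraries before any comparison was made. Its Pearson correlation with them, on log2 CPM (counts relative to the library size after TMM scaling), ran from 0.749 to 0.801, against 0.966 to 0.984 among the others. The 14 excitatory neuron markers summed to 5258 and 5039 CPM in wild type 1 and 2, to 64.3 CPM in wild type 3, and to 3682, 2978 and 2603 CPM in the knockouts. Slc17a7, the glutamate transporter that defines these neurons, stood at 0.908 CPM in wild type 3 and Neurod6 at 0, against at least 428 CPM of Slc17a7 in each other core library. Neuronal markers were therefore near 0 in that library alone. The 27 disease-associated microglia genes summed to 37538 and 44986 CPM in wild type 1 and 2 and to 173658 CPM in wild type 3. Wild type 3 had 18713770 counts against 16993978 to 17691801 in the other 17 libraries, and its 10 most abundant genes, led by the cathepsin gene Ctsd and by Spp1, took 15.5% of its counts against 3.27% to 5.38% elsewhere. Wild type 3 thus held few neuronal transcripts and many microglial ones. The excitatory sums of wild type 1 and 2 lay within the wild-type contralateral range of 4798 to 6537 CPM, and those of the knockouts lay below it. Among the knockouts, 2 and 3 also held midbrain genes such as Pax7 (4.12 and 9.83 CPM, against 0 in the other 4 core libraries). In bulk tissue, fewer cells of a type and less RNA per cell cannot be told apart. Results were computed with all 6 core libraries and without wild type 3. A rise or fall below refers to the test without wild type 3, and the value with all libraries follows.

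**Figure D1:**
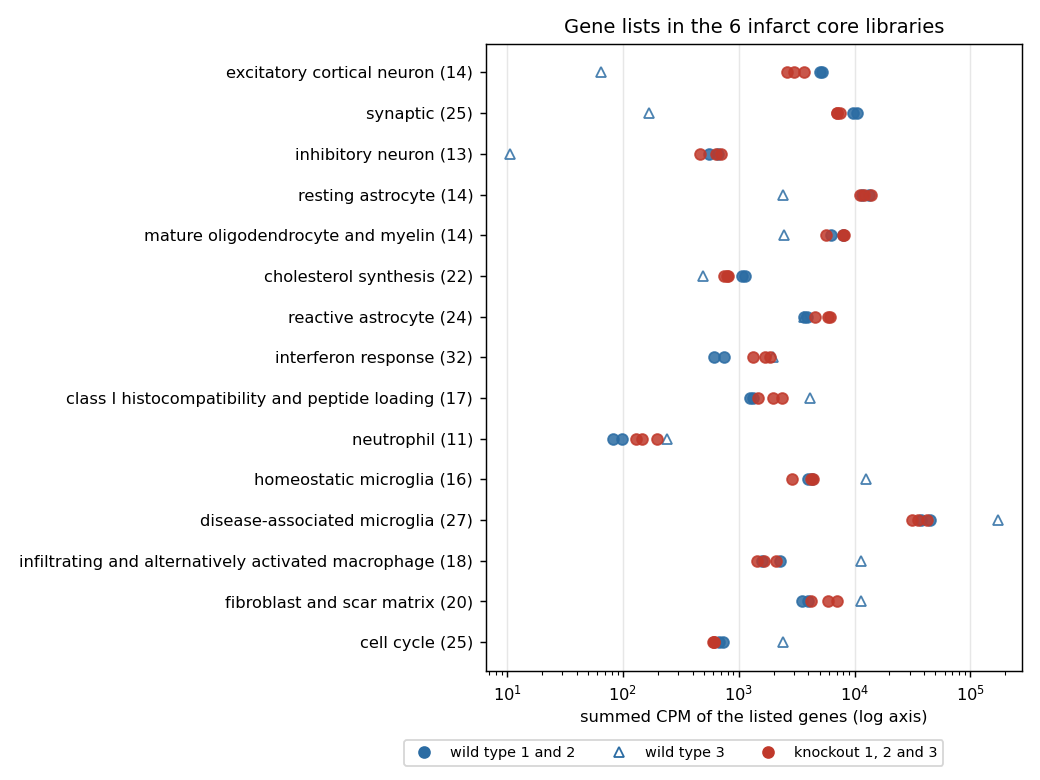
Summed CPM of 15 gene lists in each core library (log axis; each point is 1 library, the number of genes summed is in parentheses). Wild type 3, the open triangle, lies far left of the others for neuronal and synaptic genes and far right for disease-associated microglia genes, while the filled circles lie close together.

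Trem2 itself read 184, 215 and 920 CPM in wild-type core 1, 2 and 3 and 5.59, 8.24 and 5.23 CPM in the knockouts (440 ± 416 CPM and 6.35 ± 1.64 CPM, mean ± SD, n = 3 each). The genotypes did not overlap. Between 99 and 148 counts remained in each knockout core library. With all libraries the log2 fold change (knockout minus wild type) was -6.11 ± 0.60 (SE; adjusted p = 0.00119), and without wild type 3 it was -4.95 ± 0.23 (adjusted p = 4.8e-08). These and all adjusted p-values below come from edgeR's quasi-likelihood test with Benjamini-Hochberg adjustment over all genes tested, with 0.05 as the threshold.

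With all libraries, 2 of 15329 genes passed, 0.013% of those tested: Trem2 fell and H2-T24 rose (0.00652% in each direction), and 1822 genes had an unadjusted p under 0.05. Every other gene described below as rising or falling in the core did so only in the test without wild type 3. Without wild type 3, 472 of 15432 genes passed (3.06%), of which 154 rose (0.998%) and 318 fell (2.06%) in the knockout core. The rises were larger, with a median log2 fold change of 1.06 and 84 of 154 past 1, while the falls had a median of -0.54 and 25 of 318 past -1. The median over all genes was 0.02. Wild type 3 lay above all 3 knockouts for 86 of the 154 genes that rose and below all 3 for 275 of the 318 that fell, against 43% and 47.3% of all genes. Adding it back, 131 of the 154 and 235 of the 318 still had the same sign, which the 5 shared libraries set in part. All 154 and all 318 were free of overlap over the 5 libraries, and 37 and 36 stayed so over all 6. Of all genes, 2795 (18.1%) had each knockout above both wild types over the 5 libraries, and 791 (5.16%) above all 3 wild types. For each knockout below, the counts were 2859 (18.5%) and 780 (5.09%). The 5.16% and 5.09% are therefore no like background for genes already free of overlap over the 5 libraries.

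The count of 472 depended on which libraries entered the fit. Leaving out wild type 1 as well, which left 1 wild-type library assumed to vary like the other groups, gave 1 call (2519 genes at unadjusted p under 0.05), leaving out knockout 2 gave 14, wild type 2 gave 136, knockout 1 gave 275 and knockout 3 gave 274. Fitted on the 5 core libraries alone, edgeR called 1 gene, Trem2 (2669 at unadjusted p under 0.05), limma-voom 1, and DESeq2 870, of which 410 were among the 472. Scaling by library totals instead of TMM turned the split to 256 higher and 195 lower, and limma on log2(TPM + 1) gave 265 higher and 333 lower.

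**Figure D2:**
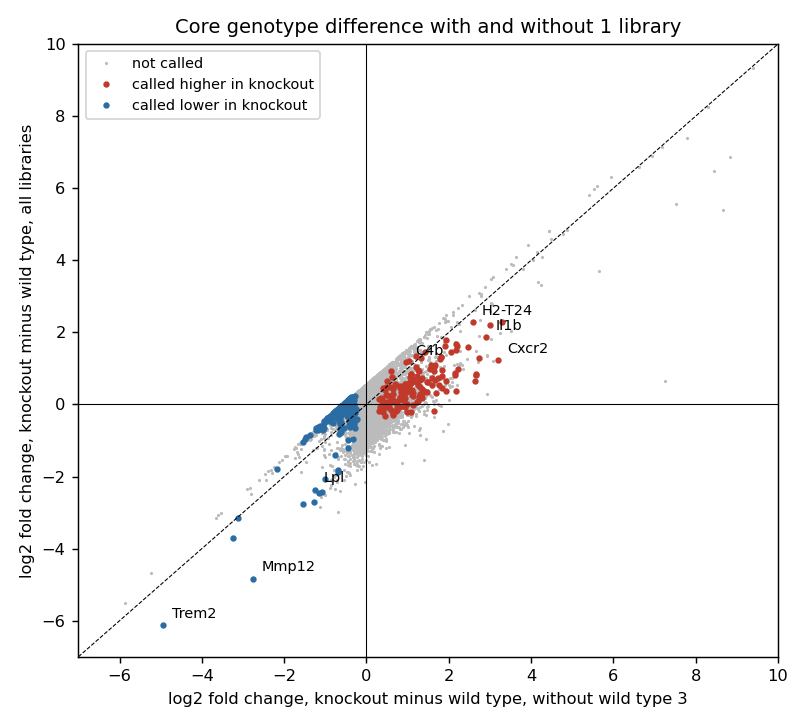
Log2 fold change of each gene (knockout minus wild type, core) without wild type 3 on the x axis and with all libraries on the y axis; the dashed line marks equal values and coloured points passed the test without wild type 3. H2-T24 lies near the line, genes that rose have a median of 1.06 on the x axis and 0.45 on the y axis, and Trem2, Mmp12 and Lpl are further down with all libraries.

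Interferon-stimulated genes held more of the rises than any other of the 40 gene lists described. Of 32 listed genes tested, 24 rose and 0 fell without wild type 3, against 0.998% and 2.06% of all genes. At unadjusted p under 0.05, 31 were higher. All 32 had a positive fold change, with a median of 1.31 against 0.02 over all genes. Their summed level was 611 and 745 CPM in wild type 1 and 2, 1980 CPM in wild type 3, and 1686, 1852 and 1317 CPM in the knockouts. The sum in wild type 3 exceeded that of each knockout, and with all libraries the median was 0.57 and edgeR called 0 of 32 (11 at unadjusted p under 0.05), limma-voom 0 and DESeq2 3. The DNA element that the complex with Stat2 and Irf9 binds was searched for as GAAA, any 2 bases, then GAAA, on both strands, overlapping matches counted, in the 250 bases before each gene start in RefSeq (build GRCm38.p6). Only genes with a promoter in RefSeq were counted, and a gene had a match if any of its promoters did. Of genes that rose, 28 of 126 had a match (22.2%), and 21 of 108 when listed interferon genes were set aside (19.4%). Of genes that fell, 7 of 243 had one (2.88%), and of all tested genes 398 of 12217 (3.26%). The genes left after setting the list aside still included other interferon-linked ones, such as Gbp2, Slfn1 and Ifi213. The 19.4% therefore does not describe genes unrelated to interferon. A match describes the letters and does not show a bound site. The promoters of 3 genes that rose are shown, 5′ to 3′ on the gene's strand with the matches in capitals. They were taken in order of the core p-value from the listed interferon genes that rose and had a match. Of the listed genes that rose and had a promoter in RefSeq, 7 of 18 had a match (38.9%). Of all listed genes tested, risen or not, 13 of 25 had one (52.0%), so matches were not particular to the risen members. That of Isg15 (chr4:156200819-156201068, minus strand) has 3 overlapping matches, the nearest 56 bases before the start. That of Trim30a (chr7:104465194-104465443, minus strand) has 1 match on the opposite strand, 26 bases before the start, and that of Stat2 (chr10:128270248-128270497, plus strand) has 1 on the opposite strand, 212 bases before it.
Isg15: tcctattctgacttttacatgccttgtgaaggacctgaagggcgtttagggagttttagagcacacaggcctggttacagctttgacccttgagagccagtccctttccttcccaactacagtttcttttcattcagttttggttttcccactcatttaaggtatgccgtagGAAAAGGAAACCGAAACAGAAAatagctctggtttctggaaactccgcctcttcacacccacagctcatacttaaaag
Trim30a: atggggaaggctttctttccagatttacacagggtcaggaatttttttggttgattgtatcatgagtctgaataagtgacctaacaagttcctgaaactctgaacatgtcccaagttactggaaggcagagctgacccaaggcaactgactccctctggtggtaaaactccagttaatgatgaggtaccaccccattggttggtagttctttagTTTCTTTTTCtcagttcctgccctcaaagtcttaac
Stat2: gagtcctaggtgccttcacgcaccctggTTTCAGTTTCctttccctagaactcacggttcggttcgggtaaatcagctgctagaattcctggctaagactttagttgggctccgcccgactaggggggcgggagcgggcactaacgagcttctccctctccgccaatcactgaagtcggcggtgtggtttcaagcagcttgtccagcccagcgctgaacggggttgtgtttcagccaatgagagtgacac

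Among the transcription factors of the pathway, Irf7, which amplifies interferon production, read 15.3 and 20.4 CPM in wild type 1 and 2, 43.8 CPM in wild type 3, and 79.7, 85.7 and 52.6 CPM in the knockouts (2.04 ± 0.43, adjusted p = 0.028). Stat2 read 32.5, 39.4 and 63.7 CPM against 59.6, 71.0 and 55.7 CPM (0.81 ± 0.14), and Irf9 rose by 0.92 ± 0.18. Irf7 was free of overlap over all 6 libraries, while for Stat2 wild type 3 lay among the knockouts. Ifih1 and Ddx58, sensors of foreign RNA, rose by 1.10 ± 0.22 and 1.09 ± 0.22. Zbp1, a sensor of Z-form nucleic acid, rose by 1.74 ± 0.31. With all libraries Irf7 had 1.45 ± 0.46, Stat2 0.46 ± 0.20, Irf9 0.47 ± 0.25, Ifih1 0.40 ± 0.34, Ddx58 0.59 ± 0.29 and Zbp1 0.73 ± 0.47 (adjusted p from 0.395 to 0.638).

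The effectors of the response rose as well. Rtp4, an interferon-induced chaperone of receptor transport, read 8.19, 11.6 and 23.7 CPM in the wild types and 32.4, 36.9 and 24.1 CPM in the knockouts (1.67 ± 0.25, adjusted p = 0.012, and 1.11 ± 0.33 with all libraries, adjusted p = 0.395). Ifit2, which binds foreign RNA, read 32.0, 31.0 and 129 CPM in the wild types and 86.9, 116 and 77.5 CPM in the knockouts (1.59 ± 0.24, adjusted p = 0.013). Rtp4 was free of overlap over all 6 libraries, while for Ifit2 wild type 3 exceeded each knockout. Isg15, a ubiquitin-like protein that is attached to other proteins, read 7.84, 11.8 and 39.7 CPM against 36.2, 38.1 and 28.8 CPM (1.82 ± 0.40, adjusted p = 0.029). The 2′-5′ oligoadenylate synthetases Oas3 and Oas2, which activate RNA decay, rose by 2.74 ± 0.60 and 2.20 ± 0.39. Oas3 stood at 0.988 and 2.81 CPM in wild type 1 and 2 and at 9.57, 20.9 and 7.14 CPM in the knockouts, and wild type 3, at 11.6 CPM, exceeded 2 of the 3 knockouts. Slfn1 and Slfn4, Schlafen genes of the myeloid lineage, rose by 2.66 ± 0.57 and 2.64 ± 0.59, although wild type 3 (5.58 and 12.06 CPM) exceeded every knockout for both. Ifi213, of a family of nuclear DNA-binding proteins, rose by 2.47 ± 0.60. With all libraries Ifit2 had 0.55 ± 0.43, Isg15 0.80 ± 0.52, Oas3 1.29 ± 0.70, Oas2 1.62 ± 0.42, Slfn1 0.82 ± 0.73, Slfn4 0.64 ± 0.77 and Ifi213 1.59 ± 0.61 (adjusted p from 0.357 to 0.757). Ifit, Oas, Slfn and Ifi2 genes have near-identical copies, so the split of reads among them is uncertain.

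**Figure D3:**
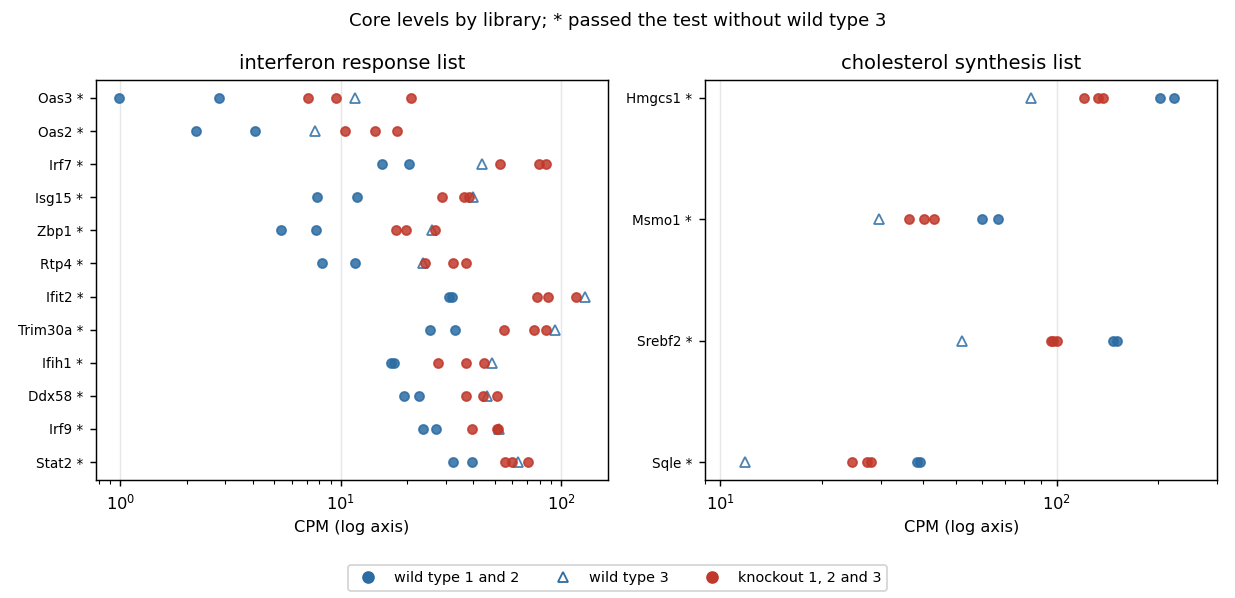
CPM in each core library (log axis) for the interferon response genes, left, and cholesterol synthesis genes, right, that the text names, ordered by fold change; an asterisk marks a gene past the test without wild type 3. Knockouts lie right of wild type 1 and 2 for interferon genes such as Irf7 and left of them for cholesterol genes such as Hmgcs1, while the triangle of wild type 3 lies among or beyond the knockouts in most rows.

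Among class I histocompatibility genes, which display peptides to T cells, 3 of 17 tested rose, H2-T24, H2-Q6 and the peptide transporter Tap1, and 16 of 17 had a positive fold change. Among all genes 0.998% rose. The class I median was 0.68 without wild type 3 and -0.17 with all libraries. H2-T24, a non-classical class I gene, read 7.61, 8.78 and 13.6 CPM in the wild types and 50.8, 63.2 and 31.4 CPM in the knockouts. All 3 knockouts exceeded all 3 wild types, and the rise was 2.58 ± 0.26 without wild type 3 (adjusted p = 0.000635) and 2.28 ± 0.26 with it (adjusted p = 0.0043). H2-Q6 rose by 1.79 ± 0.40 and Tap1 by 0.82 ± 0.19. With all libraries H2-Q6 had 1.27 ± 0.41 and Tap1 -0.07 ± 0.38 (adjusted p from 0.395 to 0.965). Class I genes are near copies of each other, so reads may be shared among them.

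Several inflammatory cytokines and chemokines rose from very low levels. Il1b, the interleukin released by inflammasomes, read 0.581, 2.18 and 5.71 CPM in the wild types and 10.4, 12.03 and 8.35 CPM in the knockouts (2.91 ± 0.49, adjusted p = 0.014). No wild type reached a knockout. Il1rn, the antagonist of its receptor, read 3.25, 3.50 and 14.8 CPM against 7.69, 10.9 and 8.99 CPM (1.46 ± 0.36). The neutrophil attractant Cxcl2 read 0.291, 1.49 and 3.63 CPM against 8.58, 7.52 and 10.2 CPM (3.30 ± 0.69, adjusted p = 0.027). For Cxcl2 too, each knockout exceeded each wild type, whereas for Il1rn wild type 3 was the highest of the 6. Cxcl9 and Cxcl12 rose by 2.17 ± 0.52 and 0.64 ± 0.16, and the neuronal chemokine Cx3cl1 fell by 0.78 ± 0.15. In all, 4 of 25 chemokine genes rose and 1 fell, and 2 of 22 cytokine and inflammasome genes rose. Among all genes 0.998% rose and 2.06% fell. The chemokine and cytokine medians were 0.75 and 0.47, which became -0.16 and -0.16 with all libraries. With all libraries Il1b had 1.87 ± 0.57, Il1rn 0.35 ± 0.52, Cxcl2 2.28 ± 0.75, Cxcl9 1.69 ± 0.50, Cxcl12 0.29 ± 0.21 and Cx3cl1 -0.24 ± 0.67 (adjusted p from 0.395 to 0.916).

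Neutrophil genes stood higher beside these rises. Cxcr2, the receptor that brings neutrophils to Cxcl2, read 0.465 and 0.804 CPM in wild type 1 and 2, 6.22 CPM in wild type 3, and 5.64, 7.52 and 4.28 CPM in the knockouts (3.20 ± 0.50, adjusted p = 0.013). S100a8, a calcium-binding protein abundant in neutrophils, read 2.56, 3.96 and 27.4 CPM against 9.96, 22.3 and 11.3 CPM (2.18 ± 0.55, adjusted p = 0.048). Both genes were lower in wild type 1 and 2 than in each other core library. All 8 tested neutrophil genes had a positive fold change and 2 of them rose, against 0.998% of all genes. The 11 listed summed to 82.3 and 98.3 CPM in wild type 1 and 2, 240 CPM in wild type 3 and 145, 199 and 129 CPM in the knockouts. Ly6c2, a monocyte gene, was 2.07 ± 0.62 higher without passing (adjusted p = 0.083). With all libraries the neutrophil median went from 1.26 to 0.39, and Cxcr2 had 1.23 ± 0.71, S100a8 0.36 ± 0.74 and Ly6c2 0.52 ± 0.70 (adjusted p from 0.483 to 0.874). Homeostatic microglia genes summed to 3964 and 4252 CPM in wild type 1 and 2, 12664 CPM in wild type 3 and 4380, 4234 and 2894 CPM in the knockouts. Without wild type 3, 0 of 16 were called by edgeR (3 at unadjusted p under 0.05), 1 by DESeq2 and 0 by limma-voom, with a median of 0.04. With all libraries each tool called 0, with 7 at unadjusted p under 0.05 in edgeR and a median of -0.36. Whether cell numbers had a part in the interferon and cytokine rises was not tested.

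Complement, reactive astrocyte and iron genes had 2 rises each, of 21, 23 and 26 tested, against 0.998% of all genes. C4b, which carries complement onto targets, read 200, 212 and 121 CPM in the wild types and 438, 375 and 383 CPM in the knockouts, with no overlap over all 6 libraries. It rose by 0.97 ± 0.17 without wild type 3 (adjusted p = 0.014) and was 1.16 ± 0.21 higher with it (adjusted p = 0.149). Cfb, of the alternative complement pathway, rose by 1.81 ± 0.36, and these were the 2 of 21 complement genes that passed. C4b has a near copy, so its count is uncertain in that respect. Gbp2, a guanylate-binding protein used as a marker of reactive astrocytes and also induced by interferon, read 16.9, 20.2 and 30.3 CPM against 43.7, 44.0 and 42.5 CPM (1.25 ± 0.20). It too was free of overlap over all 6 libraries. Ceruloplasmin (Cp), which oxidises iron for export, read 37.5, 44.7 and 78.5 CPM against 71.7, 84.4 and 83.5 CPM (0.98 ± 0.22), and Nqo1, a quinone reductase of the oxidative stress response, rose by 0.70 ± 0.18. Gbp2 and Cp were the 2 of 23 reactive astrocyte genes that rose. With all libraries Cfb had 1.30 ± 0.38, Gbp2 0.95 ± 0.23, Cp 0.58 ± 0.26 and Nqo1 0.58 ± 0.17 (adjusted p from 0.279 to 0.415). The medians of the complement, reactive astrocyte and iron lists were 0.16, 0.41 and 0.19 without wild type 3 and -0.58, 0.20 and -0.30 with it.

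Scar genes were mostly higher without passing the test. Thbs1, a matrix protein that activates TGF-beta, read 29.9 and 53.4 CPM in wild type 1 and 2, 200 CPM in wild type 3 and 130, 168 and 117 CPM in the knockouts (1.75 ± 0.44, adjusted p = 0.048). It was the 1 of 20 fibroblast and scar matrix genes to rise, against 0.998% of all genes. All 20 fold changes were positive, with a median of 0.65 without wild type 3 and 0.07 with it. The 20 genes summed to 3521 and 3959 CPM in wild type 1 and 2, 11270 CPM in wild type 3 and 4234, 7012 and 5917 CPM in the knockouts. Col5a1, a fibrillar collagen, was 0.85 ± 0.25 higher (adjusted p = 0.080). Ccn1 and Tgfbi, a matricellular and an adhesion protein induced by growth factors of the TGF-beta and related pathways, rose by 1.06 ± 0.22 and 1.23 ± 0.30, 2 of 22 genes of that list. With all libraries Thbs1 had 0.55 ± 0.59, Col5a1 0.13 ± 0.36, Ccn1 0.56 ± 0.29 and Tgfbi 0.06 ± 0.50 (adjusted p from 0.444 to 0.979). The median of that last list was 0.16 without wild type 3 and 0.04 with it.

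Of the disease-associated microglia programme, 2 of 27 genes fell without wild type 3, Lpl and Ch25h, 0 rose, and the median was -0.07. Over all genes 2.06% fell. Lipoprotein lipase (Lpl), which releases fatty acids from lipoproteins, read 237, 280 and 1135 CPM in the wild types and 121, 122 and 78.1 CPM in the knockouts (-1.25 ± 0.24, adjusted p = 0.021). Ch25h, which makes 25-hydroxycholesterol, read 24.6, 24.5 and 121 CPM against 7.64, 6.63 and 10.7 CPM (-1.54 ± 0.34, adjusted p = 0.029). Both were lower in every knockout than in any wild type. With all libraries the differences were -2.36 ± 0.48 and -2.76 ± 0.57 and did not pass (adjusted p = 0.225 for each), and the list's median was -1.14. Each of the 27 genes was higher in wild type 3 than in all knockouts.

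Mmp12, the macrophage elastase, also fell. It read 203, 330 and 2751 CPM in the wild types and 35.3, 54.5 and 25.7 CPM in the knockouts (-2.77 ± 0.65, adjusted p = 0.042). It was the 1 of 17 infiltrating or alternatively activated macrophage genes that fell, against 2.06% of all genes. The median of that list was 0.59 without wild type 3 and -0.65 with all libraries, so its sign turned. With all libraries Mmp12 had -4.83 ± 1.02 and Mmp11 0.46 ± 0.32 (adjusted p from 0.225 to 0.553). In all, 1 of 21 metalloprotease genes rose (Mmp11, 1.04 ± 0.25) and 2 fell (Mmp12 and Mmp17), against 0.998% and 2.06% of all genes. The metalloprotease median was 0.38 without wild type 3 and -0.16 with it.

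Other hallmark genes of the programme did not pass the test without wild type 3. Apoe, the lipid carrier, read 8736 and 8165 CPM in wild type 1 and 2, 23780 CPM in wild type 3, and 9028, 11803 and 8007 CPM in the knockouts (0.21 ± 0.18, adjusted p = 0.557). Spp1, a secreted phosphoprotein, read 5688 and 8493 CPM in wild type 1 and 2, 40513 CPM in wild type 3, and 3510, 4096 and 3991 CPM in the knockouts (-0.85 ± 0.47, adjusted p = 0.332). Apoe overlapped between genotypes, while for Spp1 every knockout lay below every wild type. Gpnmb, a lysosome-associated membrane protein, had -0.89 ± 0.55 (adjusted p = 0.390) and Clec7a, a pattern receptor, -0.53 ± 0.28 (adjusted p = 0.322). Cst7, Itgax and Cd68 had -0.26 ± 0.26, -0.25 ± 0.33 and -0.31 ± 0.29, and Axl, a receptor for dying cells, 0.42 ± 0.16, with adjusted p-values of 0.623, 0.710, 0.588 and 0.153. Of the resting markers, P2ry12 had 0.37 ± 0.19, Tmem119 -0.12 ± 0.13 and Aif1 0.41 ± 0.16, with adjusted p-values of 0.287, 0.656 and 0.181. These markers straddled 0 and did not pass. Tyrobp, the adaptor of Trem2, read 212, 257 and 1040 CPM in the wild types and 213, 239 and 165 CPM in the knockouts (-0.17 ± 0.20, adjusted p = 0.676), and 0 of 21 signalling partners were called by edgeR, DESeq2 or limma-voom, with 2 at unadjusted p under 0.05 and a median of 0.13. With all libraries Apoe had -0.50 ± 0.36, Spp1 -2.24 ± 0.68, Gpnmb -2.31 ± 0.74 and Clec7a -1.65 ± 0.50 (adjusted p from 0.395 to 0.563). On the same scale Cst7 had -1.00 ± 0.39, Itgax -1.69 ± 0.58, Cd68 -1.57 ± 0.53, Axl 0.07 ± 0.21, P2ry12 0.34 ± 0.17, Tmem119 -0.96 ± 0.35, Aif1 -0.21 ± 0.29 and Tyrobp -1.29 ± 0.45 (adjusted p from 0.395 to 0.927). The median of the signalling partners was then -0.50, with 0 called by each tool and 4 at unadjusted p under 0.05 in edgeR.

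Calls among lipid uptake, lysosome and phagocytosis genes ranged from 0 to 3 per list. Of 31 lipid uptake, storage and efflux genes only Lpl passed, and the list's median was 0.03 without wild type 3 and -0.61 with it. Among 34 lysosome genes 0 passed with edgeR, DESeq2 or limma-voom (2 at unadjusted p under 0.05 with edgeR), with medians of -0.01 and, with all libraries, -0.69 (0 called by each tool, 19 at unadjusted p under 0.05 in edgeR). Among 25 phagocytosis receptors, Fcgr1, the high-affinity antibody receptor, rose by 0.63 ± 0.15, and Adgrb1 and Tyro3, receptors for dying cells that neurons and astrocytes also make, fell by 0.39 ± 0.10 and 0.82 ± 0.20. That is 3 of 25 called, against 3.06% of all genes, and the list's median was -0.07 without wild type 3 and -0.78 with it. With all libraries Fcgr1 had -0.29 ± 0.37, Adgrb1 0.14 ± 0.59 and Tyro3 -0.29 ± 0.64 (adjusted p from 0.776 to 0.952).

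Cholesterol synthesis genes were lower in the knockout core. Of 22 tested, 11 fell and 0 rose without wild type 3, against 2.06% and 0.998% of all genes. A negative fold change was found in 21, and the median was -0.40. Their summed level was 1134 and 1065 CPM in wild type 1 and 2, 495 CPM in wild type 3 and 742, 798 and 802 CPM in the knockouts. With all libraries the median was -0.14 and edgeR called 0 of 22 (2 at unadjusted p under 0.05), limma-voom 0 and DESeq2 1. The wild-type library 3 had the lowest sum of the 6, so the genotypes did not separate with it included.

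Genes that fell lay at several steps of the pathway. Srebf2, the transcription factor that drives it, read 147 and 151 CPM in wild type 1 and 2, 52.4 CPM in wild type 3 and 96.3, 97.4 and 100.1 CPM in the knockouts (-0.58 ± 0.10, adjusted p = 0.014). Hmgcs1, an early enzyme, read 223, 203 and 83.8 CPM against 120, 137 and 132 CPM (-0.69 ± 0.10, adjusted p = 0.0098). Sqle, which makes squalene epoxide, fell by 0.52 ± 0.10. Msmo1, a later sterol oxidase, read 66.8, 59.8 and 29.7 CPM against 36.4, 43.1 and 40.4 CPM (-0.64 ± 0.09, adjusted p = 0.0098). For each of these genes the 3 knockouts lay between wild type 3 and the other wild types. With all libraries Srebf2 had -0.25 ± 0.27, Hmgcs1 -0.39 ± 0.25, Sqle -0.16 ± 0.30 and Msmo1 -0.38 ± 0.20 (adjusted p from 0.456 to 0.855). The sterol element TCACNCCAC was searched on both strands in the same way. It was present for 1 of the 7 fallen members with a promoter in RefSeq (Hmgcs1). Of all genes that fell and had a promoter, 7 of 243 had it (2.88%), against 1.2% of all tested genes.

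Neuronal and synaptic genes fell as well. Of 25 synaptic genes 10 fell, against 2.06% of all genes. All 25 had a negative fold change, and the median was -0.52 without wild type 3 and 0.04 with all libraries. Shank3, a scaffold under excitatory synapses, read 156 and 153 CPM in wild type 1 and 2, 6.29 CPM in wild type 3 and 91.6, 89.8 and 88.8 CPM in the knockouts (-0.76 ± 0.14, adjusted p = 0.016). Syn1, which tethers synaptic vesicles, read 439, 358 and 2.92 CPM against 256, 269 and 252 CPM (-0.60 ± 0.11). Knockouts were lower than wild type 1 and 2 and far above wild type 3. Of 14 excitatory neuron genes 3 fell: Slc17a7 (993, 878 and 0.908 CPM against 593, 521 and 428 CPM, -0.85 ± 0.19), Camk2a (-0.76 ± 0.16) and Neurod6 (-1.22 ± 0.30). Of 13 inhibitory neuron genes 1 fell, Npy (-1.22 ± 0.24). The excitatory and inhibitory medians were -0.57 and -0.10 without wild type 3 and -0.0034 and 0.43 with it. With all libraries Shank3 had -0.22 ± 0.65, Syn1 -0.04 ± 0.86, Slc17a7 -0.28 ± 1.07, Camk2a -0.20 ± 0.95, Neurod6 -0.66 ± 0.97 and Npy -0.70 ± 0.58 (adjusted p from 0.622 to 0.992).

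Activity-linked and receptor genes of neurons were among the largest falls. Npas4, induced by neuronal firing, read 19.1 and 8.38 CPM in wild type 1 and 2, 1.17 CPM in wild type 3 and 3.76, 5.29 and 4.86 CPM in the knockouts (-1.55 ± 0.30, adjusted p = 0.021), and Egr3 fell by 0.94 ± 0.23. Htr2a, a serotonin receptor, read 9.01, 10.2 and 0.259 CPM against 3.26, 3.17 and 3.65 CPM (-1.49 ± 0.28). Hs3st2, a heparan sulfate sulfotransferase, fell by 1.48 ± 0.32. With all libraries Npas4 had -1.05 ± 0.58, Egr3 -0.39 ± 0.80, Htr2a -0.95 ± 0.68 and Hs3st2 -0.91 ± 0.86 (adjusted p from 0.468 to 0.877). The cholesterol synthesis, excitatory and synaptic sums were each higher in wild type 1 and 2 than in every knockout. Wild type 3 had the lowest of each of these sums among the 6 libraries (495, 64.3 and 167 CPM). The cholesterol sums of the knockouts lay close together, at 742, 798 and 802 CPM. Knockout 1 was lowest of the 3 in that sum and highest in the excitatory (3682 CPM) and synaptic (7491 CPM) sums. Resting astrocyte genes summed to 13275 and 11560 CPM in wild type 1 and 2, 2394 CPM in wild type 3 and 13875, 11235 and 12074 CPM in the knockouts, and myelin genes to 6304, 8015 and 2445 CPM against 8172, 5693 and 7944 CPM, so both overlapped between knockouts and wild type 1 and 2. The part of tissue composition in the cholesterol falls was not tested.

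**Figure D4:**
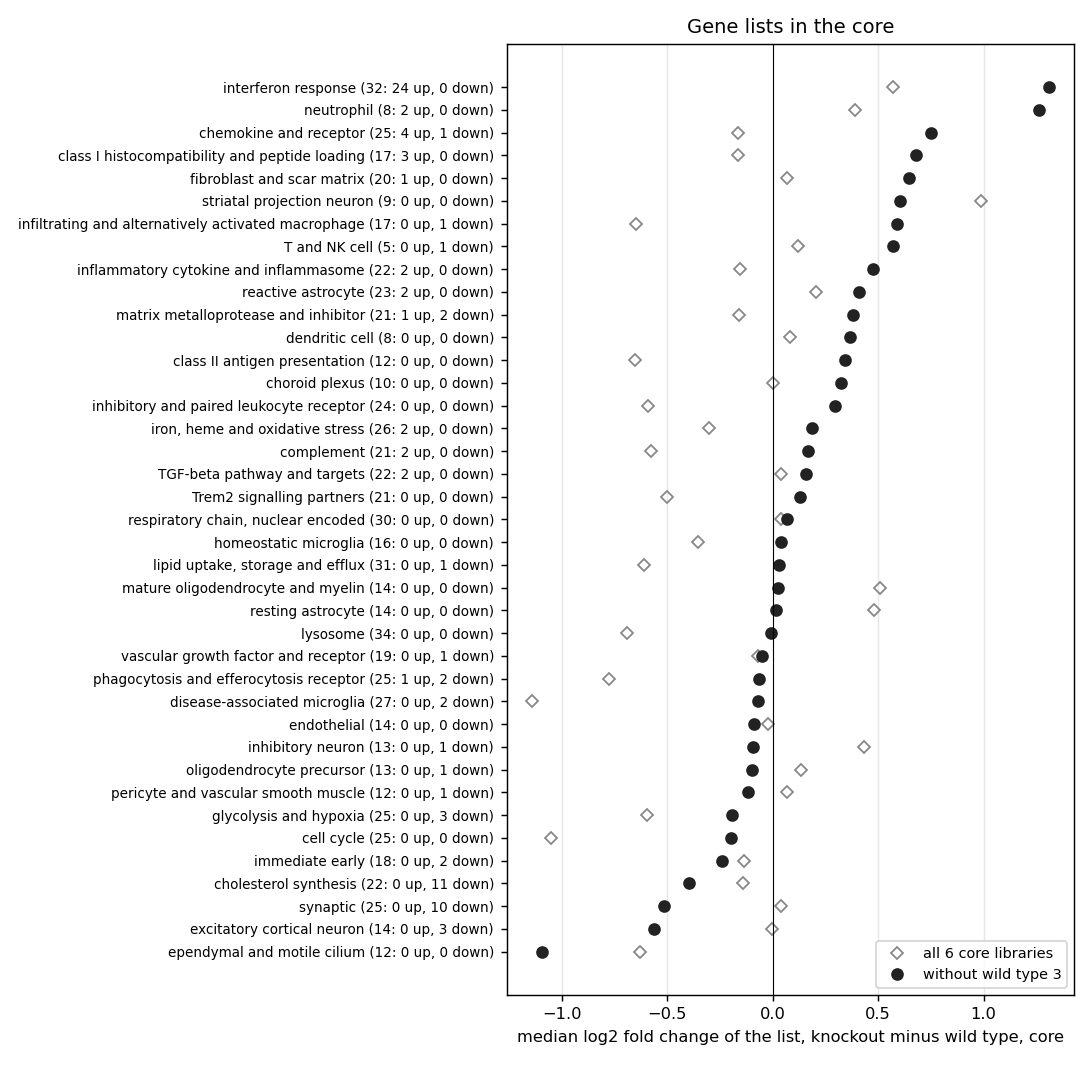
Median log2 fold change (knockout minus wild type, core) of each list with at least 5 tested genes, without wild type 3 (filled) and with all 6 core libraries (open diamonds); the label gives genes tested and genes called up and down without wild type 3. Interferon, at 1.31, is at the top without wild type 3 and lies at 0.57 with it, and disease-associated microglia genes lie at -0.07 without it and -1.14 with it.

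A few vascular, glial and metabolic genes completed the falls. Vegfa, the vascular growth factor, read 56.8, 56.4 and 58.9 CPM in the wild types and 32.0, 35.9 and 40.0 CPM in the knockouts. The 3 wild types were nearly equal and lay above all knockouts, and the difference was -0.63 ± 0.11 without wild type 3 (adjusted p = 0.014) and -0.67 ± 0.11 with it (adjusted p = 0.072). Cspg4, the NG2 proteoglycan of pericytes and oligodendrocyte precursors, read 59.0, 64.9 and 257 CPM against 29.0, 35.6 and 26.8 CPM (-1.00 ± 0.20). Slc45a3, a sugar transporter of oligodendrocytes, read 3.43, 3.90 and 22.3 CPM against 1.38, 1.45 and 1.64 CPM (-1.27 ± 0.28). Of 25 glycolysis and hypoxia genes 3 fell, against 2.06% of all genes. Hk1 fell by 0.37 ± 0.07, Eno1 by 0.28 ± 0.07 and Egln3, an oxygen sensor, by 0.70 ± 0.18. That list's median was -0.20 without wild type 3 and -0.60 with it. Among 30 nuclear-encoded respiratory chain genes edgeR, DESeq2 and limma-voom each called 0 (1 at unadjusted p under 0.05 with edgeR), with a median of 0.07. Among 25 cell cycle genes 0 were called by these tools and edgeR had 0 at unadjusted p under 0.05, with a median of -0.20. With all libraries the cell cycle median was -1.05 and 22 of 25 genes were at unadjusted p under 0.05 in edgeR, with 0 called by each tool, and wild type 3 exceeded all knockouts for each of the 25. Thy1, listed with T cells but also made by neurons, fell by 0.35 ± 0.07, and Cd8a, at or below 1.22 CPM in every core library, was 1.78 ± 0.49 higher (adjusted p = 0.066). With all libraries Cspg4 had -2.06 ± 0.44, Slc45a3 -2.72 ± 0.59, Hk1 -0.0037 ± 0.30, Eno1 -0.65 ± 0.19, Egln3 -1.83 ± 0.45, Thy1 0.12 ± 0.44 and Cd8a 0.80 ± 0.51 (adjusted p from 0.225 to 0.999).

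The core was then set beside the other regions, which hold other libraries but may come from the same brains. The fits had no term for the animal, so like signs across regions need not be independent. In the fit without wild-type core 3, the genotype comparison called 18 genes in the peri-infarct zone (0.117%), of which 6 rose (0.0389%) and 12 fell (0.0778%). At the contralateral site it called 6 (0.0389%), of which 2 rose (0.013%) and 4 fell (0.0259%). The 4 genes called in all 3 regions were Trem2, Mmut, Glo1 and Nnt. Mmut, a mitochondrial mutase of propionate breakdown, read 57.6, 54.7 and 37.8 CPM in wild-type core and 91.1, 79.0 and 83.8 CPM in knockout core, and it rose by 0.61 ± 0.09 in the core, 0.59 ± 0.08 in the peri-infarct zone and 0.69 ± 0.08 contralaterally. Glo1, which clears methylglyoxal, read 105, 118 and 68.3 CPM against 245, 166 and 260 CPM and rose by 1.03 ± 0.19, 0.97 ± 0.17 and 1.04 ± 0.17. Nnt, a mitochondrial transhydrogenase that makes NADPH, read 49.8, 54.7 and 66.2 CPM against 32.9, 35.5 and 28.5 CPM and fell by 0.67 ± 0.13, 0.82 ± 0.12 and 0.79 ± 0.12. None of the 3 overlapped between genotypes in the core. With all core libraries Mmut had 0.76 ± 0.13, Glo1 1.21 ± 0.22 and Nnt -0.82 ± 0.14 (adjusted p from 0.094 to 0.145).

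Most core changes had the same sign outside the core, in tissue that may come from the same animals. The genes were selected by their core test, so their medians elsewhere are given as a description and no difference in size is read from them. Of the 154 genes that rose, 136 were also higher in the knockout peri-infarct zone (88.3%, against 46.4% of all genes) and 109 contralaterally (70.8%, against 51.3%), with medians of 0.36 and 0.11. Of the 318 that fell, 267 were lower in the peri-infarct zone (84.0%, against 53.6%) and 279 contralaterally (87.7%, against 48.7%), with medians of -0.13 and -0.14. The interferon list had medians of 1.31, 0.52 and 0.37 in core, peri-infarct and contralateral tissue, cholesterol synthesis -0.40, -0.08 and -0.05, and the synaptic list -0.52, -0.16 and -0.14. Disease-associated microglia genes had the opposite order, with -0.07 in the core and -0.70 and -0.67 outside it. That order holds only without wild-type core 3: with all libraries the list's core median was -1.14. The interferon, cholesterol and synaptic core medians were then 0.57, -0.14 and 0.04. Clec7a fell by 1.55 ± 0.27 in the peri-infarct zone (adjusted p = 0.045) and by 2.48 ± 0.36 contralaterally (adjusted p = 0.025), and Lpl fell by 1.92 ± 0.23 in the peri-infarct zone.

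The difference between regions was itself tested as an interaction, and edgeR called 0 genes. This test treated libraries of different regions as independent. For core against peri-infarct, 286 genes had an unadjusted p under 0.05 with all libraries and 1963 without wild-type core 3, limma-voom called 0 in both, and DESeq2 called 0 with 18 libraries and 95 with 17 (17 higher, 78 lower). For core against contralateral, the unadjusted counts were 366 and 1475, limma-voom called 0 in both, and DESeq2 called 1 and 32. By edgeR, then, no gene's fold change was shown to differ between the core and another region.

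**Figure D5:**
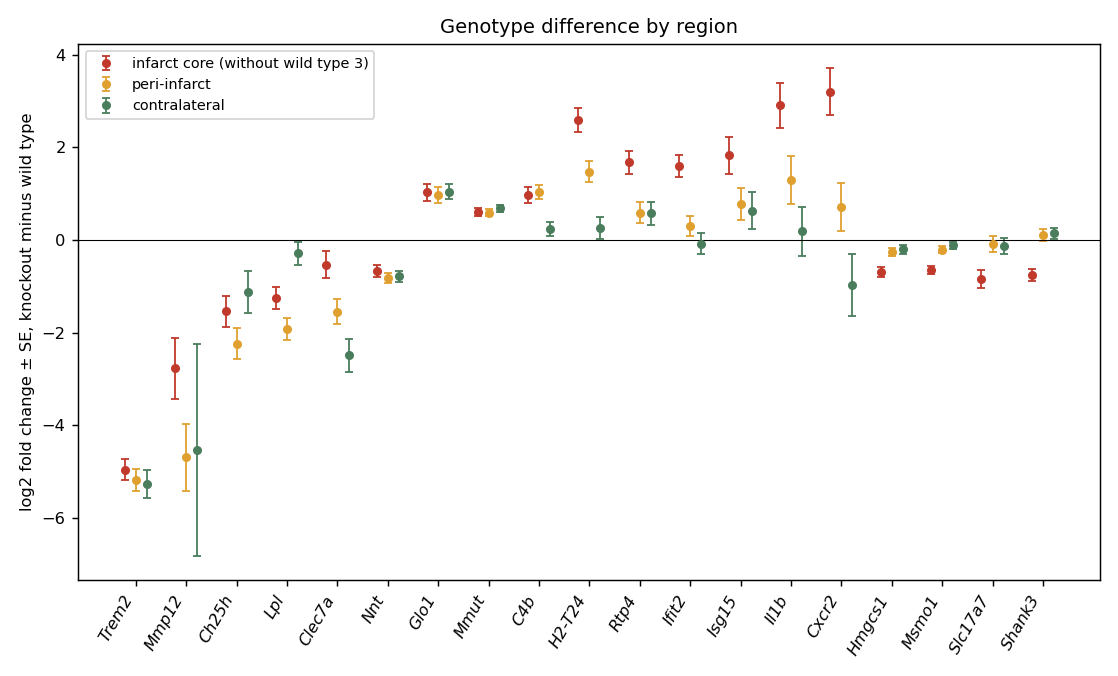
Log2 fold change ± SE (knockout minus wild type) of 19 genes in the core without wild type 3, the peri-infarct zone and the contralateral site. Mmut, Glo1 and Nnt have like values in all regions, Cxcr2 and Il1b are highest in the core, and Clec7a is nearest 0 in the core at -0.53. With all libraries, not drawn here, Clec7a had -1.65 in the core.

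Trem2 lies on chromosome 17, as do H2-T24, C4b, Cfb, Glo1, Mmut and Vegfa. In RefSeq gene order (GRCm38.p6), 36 of 749 tested chromosome 17 genes were called in the core without wild type 3 (4.81%, against 3.06% over all genes and 1.48% to 4.69% on the other chromosomes). Among the 50 tested genes on either side of Trem2, 7 of 100 were called (7.0%), and 28 of 648 elsewhere on the chromosome (4.32%). Those 7 were Lrrc73, Ttbk1, Cnpy3, Mrps10, Guca1b, Tbc1d5 and Dpp9. The chromosome 17 genes named above with Trem2 all lay outside that window. Nnt lies on chromosome 13.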

How the data were processed

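RNA-seq libraries of poly(A) RNA were compared as deposited. Build GRCm39 (mm39), Subread, Bowtie2 and HISAT2 2.0.4 appear in the submitters' processing notes, without roles, and the tool that counted reads was not given in the sources used here. The authors deposited a gene table of estimated counts, of which 3678 genes (19.4%) held values that were not whole, and a second table of TPM (expression scaled for gene length and depth), made by the authors from the same libraries. Whole counts had been planned for, so the counts were rounded. Totals were 16993978 to 18713770 per library, and precision is limited by 3 libraries per group.

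Counts were filtered with edgeR's filterByExpr, scaled by TMM and tested with edgeR 4.0.16 (quasi-likelihood, R 4.3.3), fitting all 6 groups together with 18 libraries (12 residual degrees of freedom) or 17 without wild-type core 3 (11). The SE is the absolute log2 fold change over the square root of F. With 3 libraries against 3, a permutation test of 1 gene cannot go below p = 0.1, so none was run. DESeq2 1.42.0, limma 3.58.1 and other settings were alternatives, and those on core libraries alone with DESeq2 and limma-voom, and the interaction fits with 17 libraries under those tools, were chosen after seeing the data. The pipeline was tested on simulated counts.

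The members and the 40 lists were chosen with earlier results of these data known. Named genes were Trem2 and 13 microglia genes, the 8 largest rises and falls without overlap at a mean of at least 1 log2 CPM, the 2 smallest p-values of each list with a called gene, and genes called in all 3 regions; further members of the interferon, cholesterol, synaptic, chemokine and other lists were named after their values were seen. Of the listed genes, 16 were not matched in the table by symbol. Replicate numbers did not pair the genotypes (correlations of same-numbered core libraries 0.04, -0.45 and -0.21). Within a genotype, same-numbered core and peri-infarct libraries had -0.07, -0.02 and 0.14 (knockout) and -0.28, 0.42 and 0.07 (wild type). Same-numbered core and contralateral libraries had -0.20, -0.11 and 0.20 (knockout) and -0.04, 0.30 and 0.05 (wild type). Whether a shared number marks 1 animal is not given by the labels. Promoters and gene order are RefSeq's, on GRCm38.p6, which differs from the files' build. A few genes counted in the lists are not reported here by name.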

Additional observations from a re-analysis of the deposited data

How the results depend on the processing

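With all libraries the 2 calls became 94 with DESeq2, 298 with limma-voom and sample weights, 21 with limma on log2(TPM + 1), 0 with edgeR on the core libraries alone (233 genes at unadjusted p under 0.05), 25 with DESeq2 and 0 with limma-voom on the core libraries alone, and from 2 to 472 with 1 library left out, 472 being without wild type 3. Library totals as scaling shifted the median of all genes to 0.15 in that comparison and TPM to 0.22 (pseudocount 1) or 0.28 (0.1). Without wild type 3 the 472 calls became 1022 with DESeq2, 1 with edgeR, 1 with limma-voom and 870 with DESeq2 on the core libraries alone, and from 1 to 275 with a further library left out. Across the alternatives without wild type 3, the interferon list had 0 to 30 genes called higher with a median from 1.07 to 1.52. The cholesterol list had 0 to 12 called lower with a median from -0.43 to -0.33. The synaptic list had 0 to 14 called lower with a median from -0.58 to -0.45. With all libraries these 3 medians lay outside those ranges, at 0.57, -0.14 and 0.04 by edgeR and at 0.79, -0.04 and 1.68 by limma-voom. The replicate number as a block gave 233 calls, 217 of them among the 472. This block is no term for the animal, because each number is shared by knockouts and wild types. Named genes gave 53 passing results, with Trem2 and H2-T24 counted in both fits, and each kept its direction in the alternatives to its own fit. For all other named genes, every such alternative lacked wild type 3. With it included, some had the opposite sign, such as Fcgr1, Adgrb1 and Thy1. Of the 53 results, 52 lost the call on the core libraries alone with edgeR and 44 without knockout 2. Without knockout 3, 20 lost it, under the replicate block 16, and without knockout 1, 15. Most also lost it without wild type 1 or without wild type 2, which left 1 wild-type library where wild type 3 was out. Among named genes that did not pass, Tmem119 ranged from -0.26 to 0.019 and Itgax from -0.64 to 0.00208 with 1 library left out, so both changed sign. Interactions of genotype with region were 95 (peri-infarct) and 32 (contralateral) with DESeq2 and 17 libraries, and 1 (contralateral) with DESeq2 and 18. The core means of Trem2 were 765 TPM in wild type and 15.4 TPM in knockout, against 440 and 6.35 CPM. These are different units, so the numbers are not compared as levels. List medians that moved by more than 1 SD between replicates of the list's mean log2 CPM (an SD with wild type 3 in it, hence wide for neuronal lists) when wild type 3 was left out became -0.070 (disease-associated microglia), 0.59 (infiltrating macrophage), 1.26 (neutrophil), -0.12 (pericyte), -0.10 (oligodendrocyte precursor), 0.030 (lipid), -0.066 (phagocytosis), -0.010 (lysosome), 0.16 (complement), 1.31 (interferon), 0.68 (class I), 0.34 (class II), 0.75 (chemokine), -0.20 (cell cycle), 0.38 (metalloprotease), -0.20 (glycolysis), 0.19 (iron) and 0.30 (inhibitory receptor). The cause was not tested. Low genes such as Oas3 and Cxcr2, under 1 CPM in a wild type, are limited by depth.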

Other observations

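Gene families chosen after their values were seen and overlapping the interferon list in part also had positive medians without wild type 3. Guanylate-binding proteins (Gbp genes), which attack vacuoles holding microbes, rose in 5 of 9 tested members, with all 9 fold changes positive and a median of 1.24. Schlafen genes rose in 5 of 7 (median 1.12), Ifi2 genes in 5 of 9 (median 1.63), and the clustered Trim12, Trim30 and Trim34 genes in 5 of 8 (median 1.26). Of 12 Parp genes, which attach ADP-ribose to proteins, 5 rose and the median was 0.39. Among all genes 0.998% rose. No member of these families fell. Family medians with all libraries were not computed. For Slfn1 and Slfn4 wild type 3 exceeded every knockout, and neither passed with it included. In the peri-infarct zone the medians were 0.60 for Gbp, -0.01 for Schlafen, 0.30 for Ifi2 and 0.09 for Parp genes.

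The largest fold changes of the core were in genes that did not pass. Without wild type 3, 17 tested genes had a log2 fold change above 5, and they included Pax7, Shox2, Irx2, Gata3, Sox14, Pou4f1 and Barhl1, transcription factors of midbrain and diencephalic neurons. Together the 17 summed to 40.4 and 70.6 CPM in knockout core 2 and 3, 3.71 CPM in knockout core 1, 0.291 and 0.115 CPM in wild-type core 1 and 2 and 2.59 CPM in wild-type core 3. Outside the core they summed to 37.8, 2.25 and 39.1 CPM in knockout contralateral 1, 2 and 3, to 44.4, 2.09 and 43.9 CPM in knockout peri-infarct 1, 2 and 3, to 66.6, 1.53 and 1.82 CPM in wild-type contralateral 1, 2 and 3 and to 57.2, 3.36 and 2.47 CPM in wild-type peri-infarct 1, 2 and 3. The libraries thus fell into 8 at 37.8 CPM or more and 10 at 3.71 CPM or less. Peri-infarct and contralateral libraries of the same genotype and number always fell on the same side. Core libraries matched them by number only in part. Shox2 alone read 8.96 and 14.4 CPM in knockout core 2 and 3 and at most 0.166 CPM in the other core libraries.

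Several lists of other cell types had few or no calls without wild type 3. Class II antigen presentation genes had 0 of 12 called by edgeR, DESeq2 or limma-voom (2 at unadjusted p under 0.05 with edgeR), with a median of 0.34, against -0.65 with all libraries. Inhibitory and paired leukocyte receptors had 0 of 24 called by edgeR (7 at unadjusted p under 0.05, all higher) and 2 each by DESeq2 and limma-voom, with a median of 0.30. Dendritic cell genes had 0 of 8 called by each tool (2 at unadjusted p under 0.05 with edgeR), B and plasma cell genes 0 of 3 (0), and striatal projection neuron genes 0 of 9 (0), with medians of 0.36, 0.47 and 0.61. Ependymal genes had a median of -1.09, with 0 of 12 called by edgeR (3 at unadjusted p under 0.05), 1 by DESeq2 and 0 by limma-voom. Endothelial genes had 0 of 14 called by edgeR (3 at unadjusted p under 0.05) and 1 by DESeq2, and resting astrocyte and myelin genes 0 of 14 each (2 at unadjusted p under 0.05 each) and 1 each by DESeq2, with medians of -0.089, 0.016 and 0.025. Choroid plexus genes had 0 of 10 called by each tool (0 at unadjusted p under 0.05 with edgeR), with medians of 0.32 in the core, 3.54 in the peri-infarct zone and 2.70 contralaterally. Cspg4 was the 1 gene that fell among 12 pericyte and 13 oligodendrocyte precursor genes. Npas4 and Egr3 were the 2 of 18 immediate early genes that fell (list median -0.24). Among all genes 2.06% fell.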
